A study of Mus musculus with 23 samples.

Results

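The 10 genes described here carry iron into cells, store it, export it and sense it, and were followed in the hippocampus of neonatal mice made anemic by blood removal. They were taken by symbol from the gene count table: Trf, Tfrc, Steap3 and Slc11a2 for uptake, Fth1 and Ftl1 for storage, Slc40a1 and Cp for export, and Aco1 and Ireb2 for sensing. All 10 had a row among the 24421 rows of the table, and all 10 were among the 15475 genes kept by a filter on low counts. Bulk RNA of the hippocampus was sequenced on postnatal day 14 in 23 libraries of 6 groups. The non-bled controls (NBC) received a needle prick at the neck and were represented by 4 females and 3 males. In moderate phlebotomy-induced anemia (mPIA, 4 females and 4 males) blood was drawn from the facial vein from day 3 towards a hematocrit of 25%, and in severe anemia (sPIA, 4 females and 4 males) towards 18%. Pups were bled 2 times daily (5.25 µl for each gram) until that value was reached, then once daily (3.5 µl for each gram). All groups were mouse pups of the same age; the strain is not named in the labels, and no genetic change is stated for any group. The labels do not say whether the libraries of a group come from separate litters, so p-values measure the spread between these libraries.

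As background, iron reaches the brain bound to transferrin, the product of Trf, and enters cells through the transferrin receptor encoded by Tfrc. In the endosome a ferrireductase (Steap3) reduces the iron and a divalent metal transporter (Slc11a2) carries it to the cytosol, where ferritin made of heavy (Fth1) and light (Ftl1) chains stores it and ferroportin (Slc40a1), helped by the ferroxidase ceruloplasmin (Cp), exports it. When iron is scarce, the iron regulatory proteins encoded by Aco1 and Ireb2 bind hairpins in the messenger RNAs, the iron-responsive elements, which blocks translation when the hairpin lies in the 5′ UTR and protects the RNA from decay when it lies in the 3′ UTR of Tfrc. In the neonatal hippocampus iron is needed for myelination, energy metabolism and neurotransmitter synthesis.

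The hairpin letters are shown first because their place bears on what can follow iron: RNA amount for Tfrc, translation for the ferritins and ferroportin. GENCODE UTRs of build GRCm38 were searched on the transcript strand for the loop CAGTG with 5 paired bases on each side (G with T allowed), a C before the first of these bases and no G directly after the loop. The motif was present in the 5′ UTR of 23 of 20580 genes (0.112%) and in the 3′ UTR of 100 of 20962 genes (0.477%). Capitals mark the loop CAGTG, and each sequence runs 5′ to 3′ on the strand of the transcript, as DNA.
Fth1, 5′ UTR, chr19:9982732-9982760, plus strand: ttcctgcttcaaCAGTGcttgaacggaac
Ftl1, 5′ UTR, chr7:45459779-45459807, minus strand: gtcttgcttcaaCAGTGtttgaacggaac
Slc40a1, 5′ UTR, chr1:45925465-45925493, minus strand: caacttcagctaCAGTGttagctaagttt
Tfrc, 3′ UTR, chr16:32631219-32631247, plus strand: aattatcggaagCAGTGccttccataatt
Tfrc, 3′ UTR, chr16:32631598-32631626, plus strand: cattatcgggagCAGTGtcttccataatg
Tfrc, 3′ UTR, chr16:32631663-32631691, plus strand: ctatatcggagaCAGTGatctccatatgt
Tfrc, 3′ UTR, chr16:32631710-32631738, plus strand: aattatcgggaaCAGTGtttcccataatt
The 3′ UTR of Tfrc held 4 matches, and the 5′ UTRs of Fth1, Ftl1 and Slc40a1 held 1 each. For the other 6 genes these letters were not in the UTRs searched, which says nothing of other forms of the element. A match is a description of the letters and does not show that a protein was bound.

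The start of Tfrc is shown as well: the gene is known as a target of hypoxia-inducible factors, whose core letters are ACGTG or GCGTG. RefSeq promoter windows of 300 bases (250 before and 50 after a start, GRCm38.p6) were found for 7 of the 10 genes. Those letters, on either strand, were in at least 1 window of 4 of these 7 genes, Tfrc, Steap3, Fth1 and Ftl1, and in 43.8% of all 32851 windows. The ACGTG nearest to a Tfrc start is given with 12 bases on either side, in capitals.
Tfrc, promoter, chr16:32608882-32608910, plus strand: ctcggtaggtgtACGTGcggaaggaagtg
A core this common does not distinguish Tfrc from other genes.

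Levels are given in CPM, the count per 1000000 counts of a library, with library totals scaled by TMM factors. The total was 15234793 to 26355712 counts in 22 of the libraries and 44362539 counts in mPIA female 3. Hippocampal neuron genes were present throughout, Prox1 at 60.7 to 128 CPM and Neurod6 at 243 to 429 CPM. In 4 libraries (NBC male 3, NBC male 4, NBC female 2 and sPIA female 2) the choroid plexus transcript Ttr lay above 1000 CPM; values without them are given beside the results they bear on. Red cell RNA was followed by a list of red cell markers led by Alas2, in which the 4 haemoglobin rows were listed at 0 in every library and Ahsp had no row. The library codes in the labels follow the groups: NBC and mPIA females share the codes 86, 90 and 91, sPIA females have none of these, and no mPIA male shares a code with an NBC male. sPIA and NBC males share the code P14 alone, with 1 library each. Outside mPIA against NBC females, anemia and code therefore cannot be told apart. The labels also carry a library number after the letter S, whose meaning is not stated. It runs from 13 to 20 in the sPIA libraries and from 38 to 55 in the NBC and mPIA libraries. Severe anemia and this number therefore cannot be told apart in either sex, also within the code P14. In bulk tissue, fewer cells of a type and less RNA per cell cannot be told apart either.

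The 10 genes spanned a wide range of levels. Per kilobase of merged exons, Fth1 was highest in NBC females, at 299.8 ± 13 CPM per kb (SD, n = 4), and Ftl1 followed at 129 ± 3.61. Tfrc had 40.3 ± 6.8, Ireb2 15.7 ± 0.676, Aco1 12.8 ± 0.359, Trf 10.2 ± 2.31 and Slc11a2 6.59 ± 0.55 CPM per kb. Slc40a1 had 2.19 ± 0.116, Steap3 1.25 ± 0.235 and Cp 1.18 ± 0.225 CPM per kb. Per kilobase of the longest transcript Slc40a1 had 5.01, Cp 2.48 and Steap3 1.39 CPM per kb, so that the order of Cp and Steap3 turned, and Fth1 had 504 CPM per kb. Of neighbours in the order by merged exons, the libraries of Aco1 and Trf overlapped, as did those of Steap3 and Cp, and the other neighbours were apart. Ferritin RNA was thus the most abundant and the RNA of the exporters and the reductase the least abundant. In the other 5 groups the first 4 places were the same, Fth1, Ftl1, Tfrc and Ireb2.

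**Figure D1:**
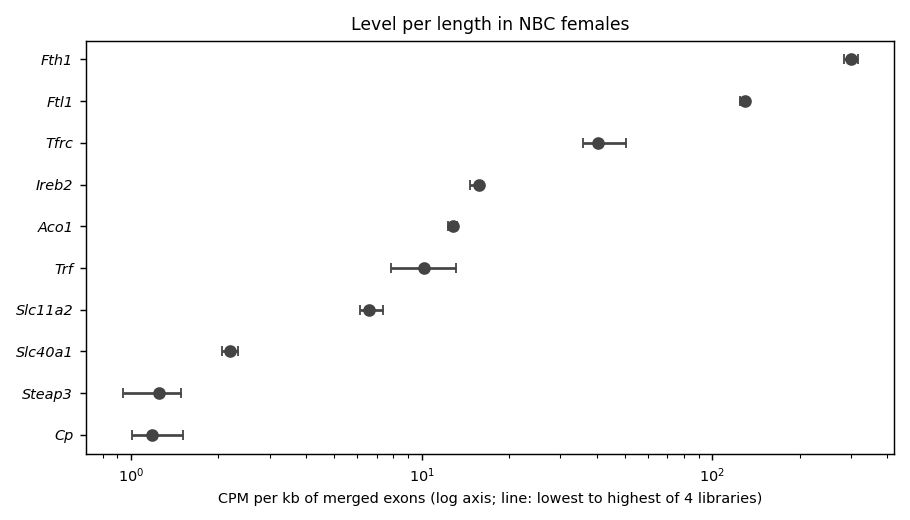
Level of the 10 genes per kilobase of merged exons in NBC females (CPM per kb, log axis), with points for the mean and lines for the lowest to the highest of 4 libraries. Fth1, at 299.8 CPM per kb, and Ftl1, at 129, lie above Tfrc, at 40.3, and Steap3 and Cp, at 1.25 and 1.18, lie lowest.

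Over the 23 libraries the ferritins and the sensors varied least. The highest library exceeded the lowest 1.3-fold for Fth1, 1.34-fold for Ftl1 and Aco1, and 1.39-fold for Ireb2. The same ratio was 1.69 for Slc40a1 and 1.71 for Slc11a2. It was 2.75 for Steap3, 2.78 for Tfrc, 2.79 for Trf and 3.8 for Cp. Steap3 and Cp were also the genes with the fewest reads, 89 to 278 and 148 to 742 per library, against 15142 to 50962 for Fth1.

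**Figure D2:**
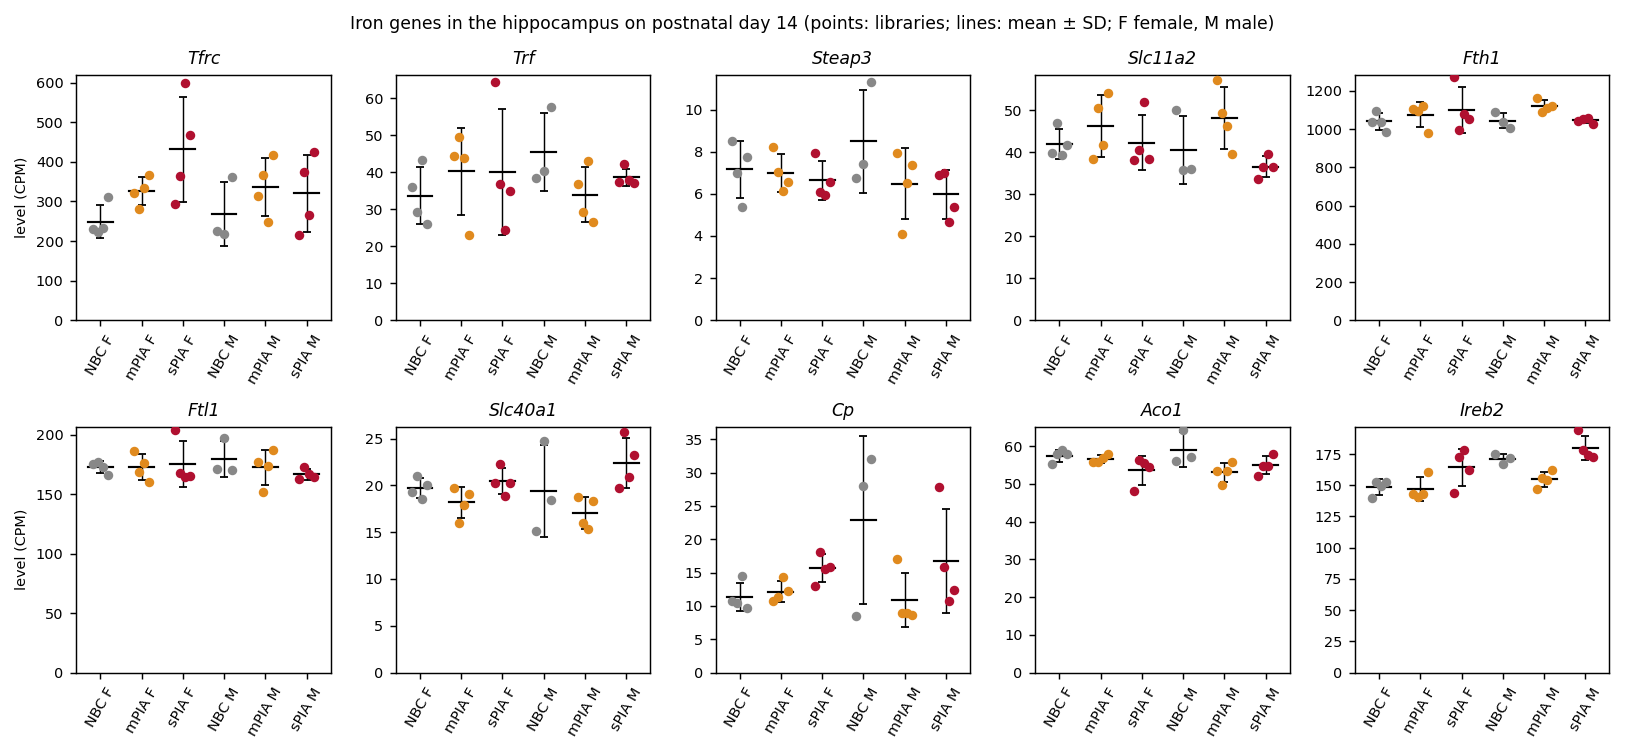
Level of each of the 10 genes in each library (CPM, linear axes from 0), in NBC, mPIA and sPIA females and then males; points are libraries and lines are the mean ± SD. Tfrc in sPIA females spreads from 294 to 599.9 CPM above most NBC females, while Fth1, Ftl1, Aco1 and Ireb2 stay within narrow bands.

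Tfrc rose in severely anemic females and was the only one of the 10 genes to pass the test against NBC in any comparison. Its RNA carries the 4 hairpins of the 3′ UTR shown above (gene at chromosome 16, 32608920 to 32632794, plus strand, GRCm38). Tfrc had 294, 364, 599.9 and 469 CPM in sPIA females, against 230.1, 222, 232 and 312 CPM in NBC females. Library sPIA female 3 stood highest and sPIA female 1 lay below NBC female 4, so the groups overlapped. Tfrc averaged 432 ± 133 CPM in sPIA females and 249 ± 42.1 CPM in NBC females (SD, n = 4 each), a fold change of 1.73. The log2 change was 0.79 (SE 0.25, 95% interval 0.27 to 1.32, adjusted p = 0.037, edgeR quasi-likelihood test). In this comparison 16% of all genes were called, 8.12% as higher, so that 1 call in 10 members is not above the background.

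The call in sPIA females was lost under several ways of processing, although the log2 change stayed between 0.59 and 0.95. With only the 2 groups fitted the edgeR adjusted p was 0.0677, with a trend of GC content and length removed it was 0.164 (log2 change 0.59), and without the 4 libraries of high Ttr it was 0.0869 (log2 change 0.82). Leaving out 1 library ended the call for NBC female 1 (adjusted p = 0.0963), NBC female 2 (0.0899), NBC female 3 (0.0787), sPIA female 3 (0.139, log2 change 0.60) and sPIA female 4 (0.0791). It was kept with DESeq2 (adjusted p = 0.0102) and limma-voom (0.0475). Over all alternatives the adjusted p ran from 0.0102 to 0.164.

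**Figure D3:**
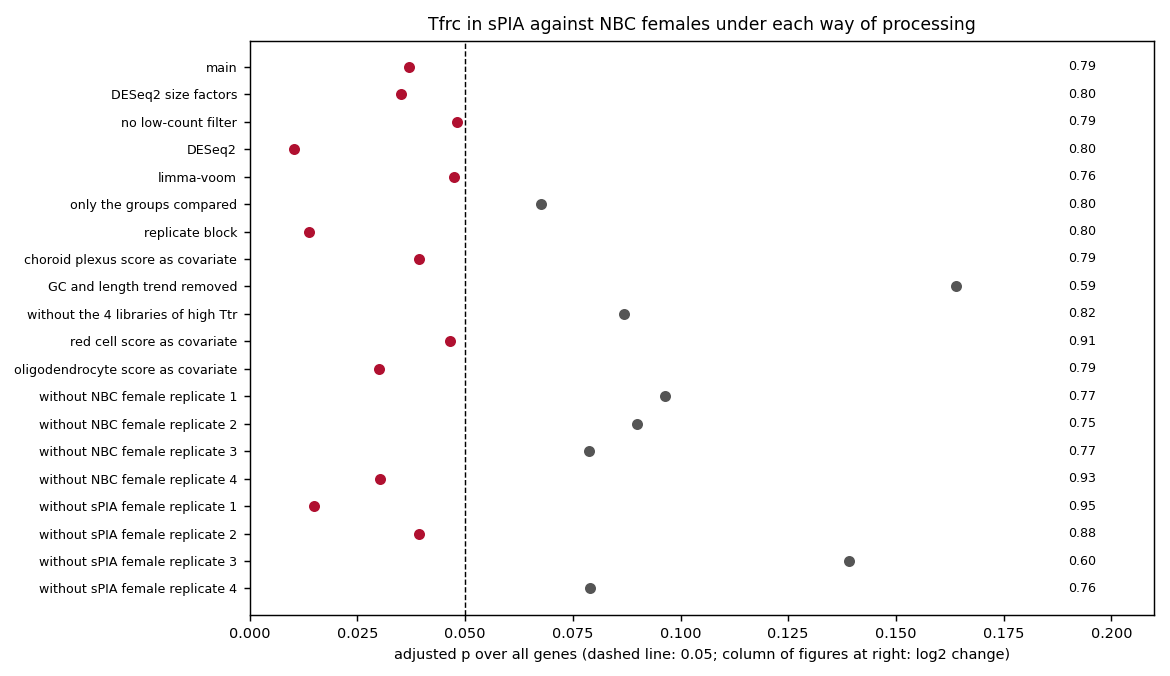
Adjusted p of Tfrc in sPIA against NBC females under each way of processing and with each library left out (linear axis, dashed line at 0.05, red points below it, log2 changes at the right). The log2 change stays between 0.59 and 0.95, while the adjusted p runs from 0.0102 to 0.164.

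Red cell RNA was followed in this comparison too. Of the 8 red cell markers 3 were tested, all 3 with a positive log2 change, and 1, Alas2, was called higher. Alas2, which makes heme in red cell precursors, rose in sPIA females (10.5 ± 6.62 CPM, against 3.39 ± 0.764 CPM in NBC females, SD, n = 4 each), with a log2 change of 1.63 (SE 0.48, edgeR adjusted p = 0.0276). Without the libraries of high Ttr, among them sPIA female 2, that change was 1.01 (edgeR adjusted p = 0.165). The summed red cell markers spanned 5.83 to 21.9 CPM in sPIA females and 2.64 to 4.71 CPM in NBC females. This sum was mostly Alas2, with 19.3 of 21.9 CPM in sPIA female 2. Slc4a1 overlapped, at 0.14 to 1.88 CPM in sPIA and 0.0539 to 0.487 CPM in NBC females. Library sPIA female 3, highest for Tfrc, had the lowest of the 4 sPIA sums, 5.83 CPM. With a red cell score in the model the log2 change of Tfrc was 0.91 (edgeR adjusted p = 0.0466). Markers of other cell types were compared as well. The summed endothelial markers spanned 383 to 431 CPM in sPIA and 346 to 364 CPM in NBC females, with 2 of 10 called higher. The astrocyte markers spanned 6605 to 8043 CPM in sPIA and 6188 to 6394 CPM in NBC females. Of these 10, 3 were called higher and 1 lower. Neither pair of ranges overlapped. The hippocampal neuron sums, 6803 to 7753 CPM in sPIA and 6187 to 6938 CPM in NBC females, overlapped, with 2 of 10 called higher. All 6 oligodendrocyte precursor markers had a negative log2 change (median -0.13, none called). Of all genes 16% were called in this comparison. The part of these cell types in the Tfrc result was not tested.

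In moderate anemia Tfrc did not pass in either sex. Tfrc had 322, 281, 333 and 367 CPM in mPIA females, a log2 change against NBC of 0.39 (SE 0.25, 95% interval -0.13 to 0.91, edgeR adjusted p = 1). In this comparison 0.00646% of genes were called, which is 1 gene, and none of the 10. The 2 groups can be set side by side within their library codes. The mean was 302 CPM in mPIA and 226 CPM in NBC females of code 86, 333 and 232 CPM for code 90, and 367 and 312 CPM for code 91. Tfrc was thus higher with mPIA in each of the 3 codes. With the code as a block, in a fit of these 2 groups alone, the log2 change was 0.40 (SE 0.05, edgeR adjusted p = 0.0147). There Tfrc was 1 of 6 genes called. In a fit of the 2 groups without a block it was 0.39 (SE 0.12) and Tfrc was not called. With the replicate number as a block, in a fit of all 23 libraries, the log2 change was also 0.40 (SE 0.20), but Tfrc was not called (edgeR adjusted p = 1). The fits with a block thus differed in their libraries as well as in the block.

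In males Tfrc did not pass with severe anemia either. Along the degrees of anemia, Tfrc had 225, 218 and 361 CPM in NBC males, 315, 368, 248 and 418 CPM in mPIA males, and 216, 375, 265 and 426 CPM in sPIA males. The 3 groups overlapped, and the sPIA males held both the lowest and the highest value. The log2 change against NBC was 0.33 (SE 0.27, 95% interval -0.23 to 0.90, edgeR adjusted p = 0.574) in mPIA males and 0.26 (SE 0.27, 95% interval -0.30 to 0.82, adjusted p = 0.747) in sPIA males. Within the code P14, which holds a single library of each group, sPIA male 4 had 426 CPM and NBC male 3 had 218 CPM. They were the highest sPIA male and the lowest NBC male, and NBC male 3 is a library of high Ttr. The effect of severe anemia differed between females and males by 0.54 (SE 0.36, edgeR adjusted p = 0.489), so a difference between the sexes was not shown. Between the degrees of anemia, sPIA against mPIA, the log2 change was 0.41 (SE 0.25, edgeR adjusted p = 0.292) in females and -0.07 (SE 0.25, adjusted p = 0.894) in males.

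**Figure D4:**
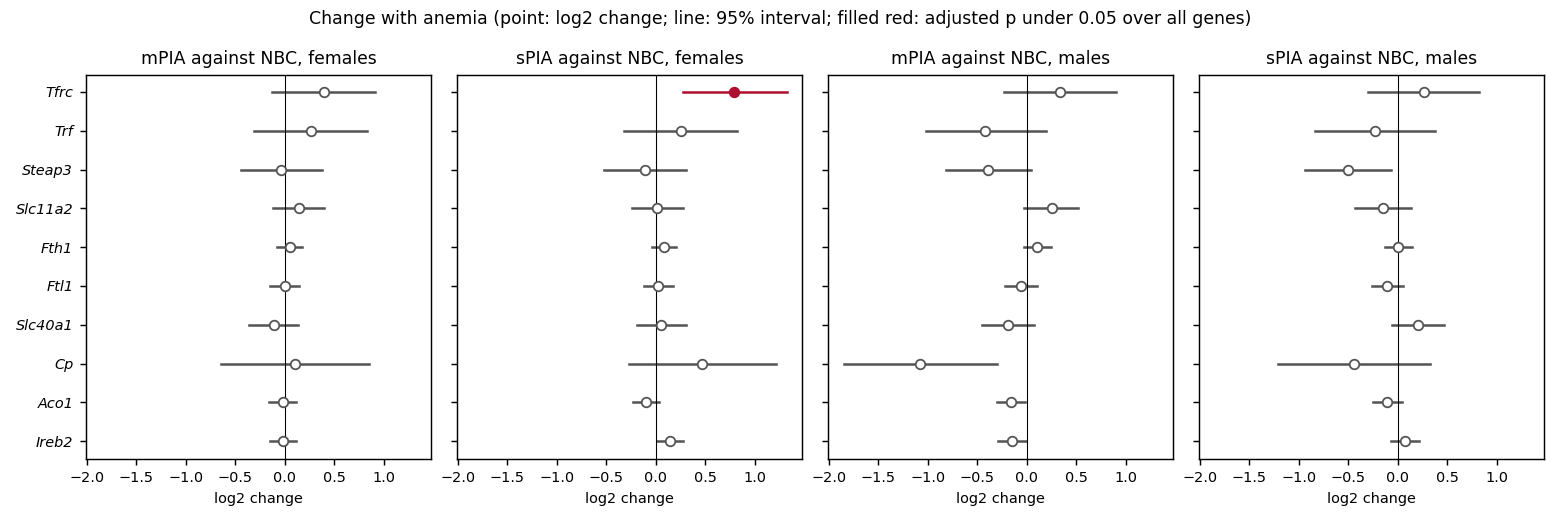
Log2 change of each of the 10 genes in mPIA and sPIA against NBC, in females and males; points are edgeR estimates, lines their 95% intervals, and a filled red point marks an adjusted p under 0.05 over all genes. Only Tfrc in sPIA females, at 0.79, is filled, and the intervals of Cp are the widest.

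Trf, which encodes transferrin and in the brain is made mainly by oligodendrocytes and the choroid plexus (chromosome 9, 103204001 to 103230444, minus strand), did not pass in any comparison. Along the degrees of anemia, Trf had 36, 29.4, 43.4 and 26.1 CPM in NBC females, 44.4, 49.7, 43.9 and 23.1 CPM in mPIA females, and 64.4, 36.9, 24.5 and 34.9 CPM in sPIA females. The 3 groups overlapped over nearly their whole range. The log2 change against NBC was 0.26 (SE 0.27, edgeR adjusted p = 1) in mPIA females and 0.25 (SE 0.27, adjusted p = 0.599) in sPIA females. In males the change was -0.42 (SE 0.29, edgeR adjusted p = 0.504) with mPIA and -0.23 (SE 0.29, adjusted p = 0.799) with sPIA. A transcript of Gm20425, an annotated gene that overlaps Trf on the same strand, matched Trf at 100% identity over 1517 bases. Gm20425 had no row in the table, so any reads it shares with Trf could not be separated.

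Trf followed the myelin genes from library to library. The summed 12 oligodendrocyte and myelin markers were highest, at 7853 CPM, in sPIA female 1, where Trf was highest. They were lowest, at 2216 and 2464 CPM, in sPIA female 3 and mPIA female 4, which had the lowest Trf, 24.5 and 23.1 CPM. Among all 15474 other genes tested, those whose log2 CPM ranked the libraries most like Trf were Gsn (Spearman rho 0.91), Mbp (0.89), Mobp (0.89), Lpar1 (0.89) and Plekhh1 (0.88), over 23 libraries that share depth scaling and anemia groups. Mbp and Mobp encode myelin proteins. None of the 12 markers was called in any of the 4 comparisons with NBC; the part of myelin content in the spread of Trf was not tested.

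For Tfrc the most similar orders of libraries were those of Kdm3a (Spearman rho 0.72), Nsl1 (0.68), Pigm (0.68), Nup205 (0.66) and Paox (0.65). These genes ranked highest among the 15474 compared, over the same 23 libraries that share depth scaling and anemia groups. Kdm3a encodes a histone demethylase known to be induced by hypoxia. A link between Tfrc and hypoxia was not tested. The rho values were lower than those of Trf with the myelin genes.

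**Figure D5:**
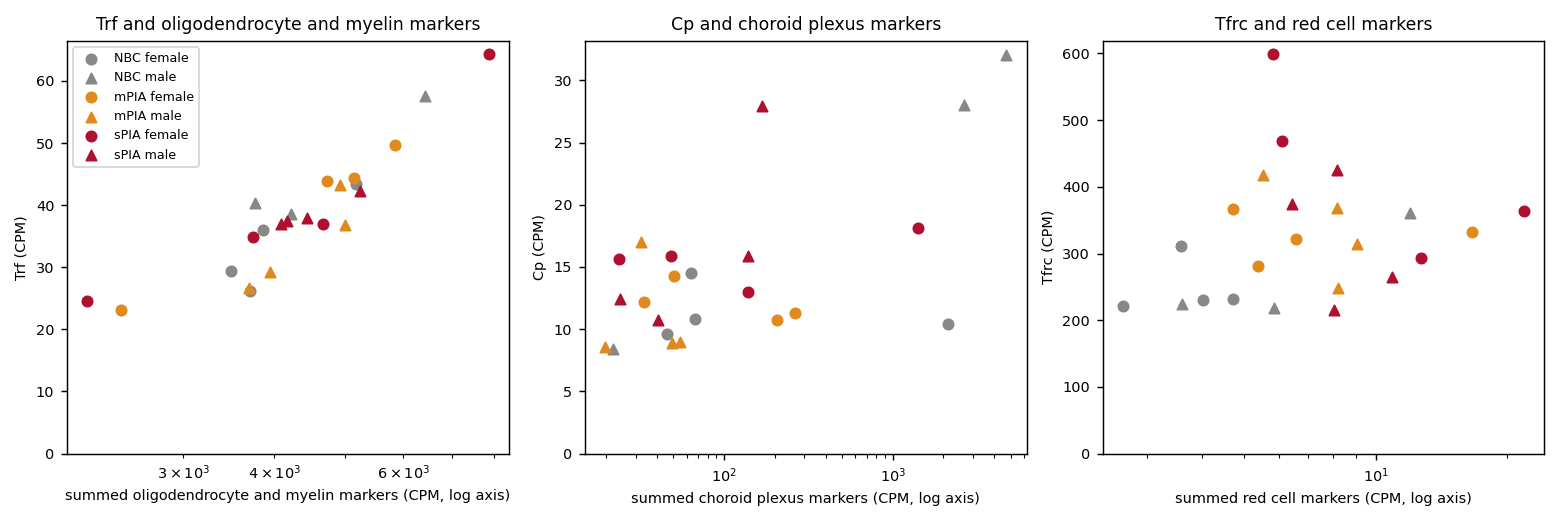
Level of Trf, Cp and Tfrc in each library (CPM, linear axis from 0) against the summed oligodendrocyte and myelin, choroid plexus and red cell markers (CPM, log axes); circles are females, triangles males, and colours the degree of anemia. Trf rises with the myelin sum up to sPIA female 1 (64.4 CPM at 7853 CPM), the 2 highest Cp libraries lie at the 2 highest choroid plexus sums, although NBC female 2, next by that sum (2129 CPM), has 10.4 CPM of Cp and sPIA male 1 has 27.9 CPM at a sum of 169 CPM, and the highest Tfrc library lies at a red cell sum of 5.83 CPM.

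Steap3 and Slc11a2, which act in the endosome, did not pass in any comparison with NBC. Steap3 (chromosome 1, 120190757 to 120272705, minus strand) had 6.76, 7.42 and 11 CPM in NBC males, 7.92, 4.11, 6.52 and 7.38 CPM in mPIA males, and 6.87, 6.99, 4.66 and 5.36 CPM in sPIA males. Its log2 change against NBC was -0.39 (SE 0.21, edgeR adjusted p = 0.365) in mPIA males and -0.50 (SE 0.21, adjusted p = 0.327) in sPIA males. In females it was -0.04 (SE 0.20, edgeR adjusted p = 1) with mPIA and -0.11 (SE 0.20, adjusted p = 0.775) with sPIA. The highest Steap3 value came from NBC male 4, 1 of the 4 libraries of high Ttr, and without these the change was -0.06 in mPIA males and -0.17 in sPIA males.

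Slc11a2 (chromosome 15, 100387898 to 100425072, minus strand) had log2 changes of opposite sign against NBC in the males, 0.25 with mPIA and -0.15 with sPIA, neither of which passed (edgeR adjusted p = 0.376 and 0.705). Slc11a2 had 33.5, 36.5, 39.6 and 36.4 CPM in sPIA males, against 57.2, 49.4, 46.1 and 39.5 CPM in mPIA males. The groups overlapped only by sPIA male 3 and mPIA male 4. The log2 change of sPIA against mPIA was -0.40 (SE 0.13, edgeR adjusted p = 0.0634), which did not pass. It passed with DESeq2 (adjusted p = 0.0398) and without the 4 libraries of high Ttr (edgeR adjusted p = 0.0477). None of those 4 libraries is an sPIA or mPIA male, so the libraries compared were the same, and the log2 change was -0.39. The NBC males had 49.9, 35.7 and 36 CPM and overlapped both anemic groups. In females the log2 change against NBC was 0.14 (SE 0.13, edgeR adjusted p = 1) with mPIA, where Slc11a2 was higher within each of the 3 shared codes, and 0.01 (SE 0.13, adjusted p = 0.957) with sPIA.

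Ferritin RNA changed little. Fth1, the heavy chain that oxidises iron (chromosome 19, 9980598 to 9985098, plus strand), had 1038, 1097, 1039 and 986 CPM in NBC females, 1107, 1094, 1119 and 978 CPM in mPIA females, and 1271, 993, 1077 and 1054 CPM in sPIA females. Apart from sPIA female 1 the libraries lay in a common range. The log2 change against NBC was 0.05 (SE 0.06, 95% interval -0.08 to 0.17, edgeR adjusted p = 1) in mPIA females and 0.08 (SE 0.06, 95% interval -0.04 to 0.20, adjusted p = 0.414) in sPIA females. Among males Fth1 had 1088, 1036 and 1008 CPM in NBC, 1161, 1089, 1111 and 1119 CPM in mPIA, and 1044, 1053, 1056 and 1029 CPM in sPIA. All mPIA males lay above all NBC and all sPIA males. The log2 change against NBC was 0.10 (SE 0.07, edgeR adjusted p = 0.462) in mPIA males and 0.00 (SE 0.07, adjusted p = 0.995) in sPIA males.

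Ftl1, the light chain (chromosome 7, 45457944 to 45459884, minus strand), spanned 166 to 177 CPM in NBC females, 159.8 to 186 CPM in mPIA females and 164 to 204 CPM in sPIA females. It spanned 170.2 to 197 CPM in NBC males, 152 to 187 CPM in mPIA males and 163 to 173 CPM in sPIA males. The groups overlapped in both sexes. The 4 log2 changes against NBC lay between -0.11 and 0.02, with edgeR adjusted p of 0.616 to 1. After a trend of GC content and length was removed, the change in sPIA females was 0.25 (edgeR adjusted p = 0.00447), where the counts as deposited gave 0.02 (adjusted p = 0.884). Reads of the ferritins may be shared with copies: transcripts of 7 other annotated genes matched Ftl1 at 90% identity or more over at least 200 bases, among them Ftl1-ps1 at 99.6% over 910 bases, and 1 matched Fth1. None of these copies had a row in the table, so any reads they share with Ftl1 and Fth1 could not be separated.

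Slc40a1, the only known exporter of iron from cells (chromosome 1, 45908068 to 45926523, minus strand), did not pass against NBC. Along the degrees of anemia, Slc40a1 had 15.1, 24.7 and 18.4 CPM in NBC males, 18.8, 16, 15.3 and 18.3 CPM in mPIA males, and 19.7, 25.7, 20.9 and 23.2 CPM in sPIA males. All sPIA males lay above all mPIA males, and the NBC males spanned both. The log2 change of sPIA against mPIA males was 0.39 (SE 0.12, edgeR adjusted p = 0.0524), which did not pass. It passed with DESeq2 (adjusted p = 0.0254), with DESeq2 size factors in edgeR (0.0478) and without the 4 libraries of high Ttr (0.021). None of those 4 libraries is an sPIA or mPIA male. The libraries compared were thus the same in that fit, and the log2 change stayed at 0.39. Among females, Slc40a1 lay at 18.5 to 21 CPM in NBC, at 16 to 19.7 CPM in mPIA, and at 18.9 to 22.3 CPM in sPIA libraries. The log2 change against NBC was -0.11 (SE 0.12, edgeR adjusted p = 1) in mPIA females and 0.05 (SE 0.12, adjusted p = 0.819) in sPIA females. Within the 3 library codes that mPIA and NBC females share, Slc40a1 was lower with mPIA in each. Tfrc and Slc11a2 were higher in each, Aco1 in none, and Trf, Steap3, Fth1, Ftl1, Cp and Ireb2 went both ways. How often all genes go 1 way in the 3 codes was not tested.

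Cp, which oxidises exported iron (chromosome 3, 19957054 to 20009145, plus strand), varied most of the 10 genes. Along the degrees of anemia, Cp had 8.44, 28 and 32 CPM in NBC males, 17, 8.92, 8.98 and 8.56 CPM in mPIA males, and 27.9, 15.9, 10.7 and 12.4 CPM in sPIA males. The 2 high NBC males were the 2 libraries with the most choroid plexus RNA. The log2 change was -1.08 in mPIA males (SE 0.37, edgeR adjusted p = 0.157) and -0.44 in sPIA males (SE 0.36, adjusted p = 0.671). The summed 12 choroid plexus markers were 22, 2649 and 4723 CPM in the NBC males, in the same order, 19.7 to 54.5 CPM in mPIA males and 24.3 to 169 CPM in sPIA males. With a choroid plexus score in the model the change in mPIA males was -0.24, and without the libraries of high Ttr, which leaves NBC male 2 alone in its group, it was 0.36. In sPIA males the change was 0.15 with the choroid plexus score and 1.00 without the libraries of high Ttr, and it ran from -0.84 to -0.14 with single libraries left out. Without NBC male 2 the change in mPIA males was -1.48 (edgeR adjusted p = 0.0052).

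In females, where 1 NBC and 1 sPIA library had high Ttr, Cp had 13, 18.1, 15.6 and 15.9 CPM with sPIA, against 10.8, 10.4, 14.5 and 9.63 CPM in NBC. Of the sPIA libraries, 3 lay above all NBC libraries. The log2 change was 0.47 (SE 0.35, edgeR adjusted p = 0.414), and it passed with only the 2 groups fitted (adjusted p = 0.0287). Without the libraries of high Ttr it was 0.35 (edgeR adjusted p = 0.543). The exons of Cp overlap Hps3 on the opposite strand, and no source names the strand setting of the counting, so reads of the 2 genes may be mixed.

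Of the sensors, Ireb2, whose product binds the hairpins and is destroyed when iron is plentiful (chromosome 9, 54863789 to 54912530, plus strand), rose in sPIA against mPIA males. Ireb2 had 194, 178, 174 and 173 CPM in sPIA males, against 147, 156, 154 and 162 CPM in mPIA males. The groups did not overlap. The log2 change was 0.22 (SE 0.06, 95% interval 0.09 to 0.35, edgeR adjusted p = 0.0422), a fold change of 1.16. In this comparison 4.92% of genes were called, 2.13% as higher, and 10.6% did not overlap; of the 10, Ireb2 was the 1 call, and Ireb2, Slc40a1 and Fth1 were the 3 without overlap. The NBC males, at 175, 167 and 172 CPM, lay nearer to the sPIA males, and the log2 change against NBC was -0.15 (SE 0.07, adjusted p = 0.289) with mPIA and 0.07 (SE 0.07, adjusted p = 0.718) with sPIA.

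The call for Ireb2 was lost when only the 2 groups were fitted (edgeR adjusted p = 0.0753), with a choroid plexus score (0.0622) or a red cell score (0.0504), all with a log2 change of 0.22, and with the GC content and length trend removed (0.424, log2 change 0.09). It was also lost without any 1 of the 4 mPIA males (0.12, 0.0581, 0.0679 and 0.0538 for libraries 1 to 4), without sPIA male 1 (0.125) and without sPIA male 2 (0.0702), with log2 changes of 0.19 to 0.25 over the libraries left out. Among females Ireb2 had 139.7, 153, 149.6 and 153 CPM in NBC, 143, 141, 143 and 161 CPM in mPIA, and 144, 173, 178 and 162 CPM in sPIA. Of the sPIA females, 3 lay above all NBC females. The log2 change of sPIA against NBC females was 0.14 (SE 0.06, edgeR adjusted p = 0.129), and that of sPIA against mPIA females was 0.17 (SE 0.06, adjusted p = 0.0734). With the GC content and length trend removed both turned negative, -0.09 and -0.08.

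Aco1, an aconitase of the cytosol that binds the hairpins once it loses its iron-sulfur cluster (chromosome 4, 40143081 to 40198338, plus strand), had 53.3, 49.8, 53.3 and 55.7 CPM in mPIA males, against 56.0, 64.3 and 57.0 CPM in NBC males. All mPIA males lay below all NBC males. The log2 change was -0.16 (SE 0.07, edgeR adjusted p = 0.253), and -0.08 without the libraries of high Ttr. In sPIA males it was -0.11 (SE 0.07, adjusted p = 0.574), in sPIA females -0.10 (SE 0.06, adjusted p = 0.314) and in mPIA females -0.02 (SE 0.06, adjusted p = 1).

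Set side by side, 1 of the 10 genes was called in sPIA against NBC females and 1 in sPIA against mPIA males, with the shares of all genes given above. In mPIA against NBC males 0.653% of all genes were called and none of the 10, while Fth1 lay above and Aco1 and Ireb2 lay below NBC without overlap, against 9.8% of all genes without overlap. In sPIA against NBC males 0.194% of genes were called, and in sPIA against mPIA females 16.1%, in each case none of the 10. At an unadjusted p under 0.05 (edgeR), 3 of the 10 passed in mPIA males, where 16% of all genes did, none in mPIA females (0.355%), 2 in sPIA females (29.1%) and 1 in sPIA males (12.1%), each against NBC. By the same measure 1 of the 10 passed in sPIA against mPIA females (29.4% of all genes) and 3 in sPIA against mPIA males (22.3%). DESeq2 called 1 of the 10 in sPIA females against NBC, 1 in sPIA against mPIA females, 3 in sPIA against mPIA males and none in the other comparisons; of the 15475 genes it called 2870, 2933 and 1220 in these 3 comparisons. The median log2 change of the 10 genes against NBC was 0.02 in mPIA and 0.07 in sPIA females, and -0.15 in mPIA and -0.11 in sPIA males, and the median of all genes tested lay between -0.01 and 0.01. No comparison of the sexes called any of the 10 genes, with 0.95% of all genes called for the effect of severe anemia and 0% for that of moderate anemia. Unadjusted, none of the 10 passed for severe anemia (16.5% of all genes) and 1, Cp, for moderate anemia (7.13%); DESeq2 called none in either.

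Beyond the 10, a list of 59 other genes of iron handling was followed, of which 51 were tested. In sPIA females 3 rose and 5 fell against NBC, a share near the 16% of all genes called there, and none was called in mPIA females or sPIA males. Iscu, the scaffold on which iron-sulfur clusters are built (chromosome 5, 113772748 to 113778288, plus strand), had 29.9, 22.9, 26.8 and 25.5 CPM in sPIA females, against 31.3 to 37.7 CPM in NBC females. The groups did not overlap. Iscu fell by 0.44 on the log2 scale (SE 0.09, edgeR adjusted p = 0.00111), and by 0.34 without the libraries of high Ttr (adjusted p = 0.0162). Glrx5 also fell among the 19 iron-sulfur cluster genes, whose median log2 change was -0.10, against 0.00 over all genes.

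Bmpr2, a receptor of the BMP pathway that controls hepcidin in the liver (chromosome 1, 59763400 to 59879014, plus strand), had 278, 325, 349.6 and 345 CPM in sPIA females, against 213, 225, 217 and 233 CPM in NBC females, a log2 change of 0.55 (SE 0.07, edgeR adjusted p = 3.59e-05). Slc22a17, a receptor for the siderophore-binding protein lipocalin (chromosome 14, 54906304 to 54913132, minus strand), had 514, 436, 418 and 456 CPM in sPIA females, against 698, 672, 598 and 614 CPM in NBC females. Slc22a17 fell by 0.50 on the log2 scale (SE 0.09, edgeR adjusted p = 0.000306). Neither pair of groups overlapped, and the calls of Iscu, Bmpr2 and Slc22a17 were kept under all alternatives run. Without the libraries of high Ttr the log2 change was 0.55 for Bmpr2 and -0.46 for Slc22a17 (edgeR adjusted p = 0.000375 and 0.00707). With the GC content and length trend removed the change of Bmpr2 was smaller, 0.31 (edgeR adjusted p = 0.000475). Other calls, named after their values were seen, were the rise of Alas2 given above and falls of Mcoln1 by 0.36, Pcbp4 by 0.44 and Glrx5 by 0.24 on the log2 scale (edgeR adjusted p = 0.0039, 0.00716 and 0.0459). Without the libraries of high Ttr Glrx5 was not called (edgeR adjusted p = 0.0735).

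The means of Iscu, Bmpr2 and Slc22a17 also differed between NBC females and NBC males, whose library codes differ. Bmpr2 averaged 222 ± 9.02 CPM in NBC females (SD, n = 4) and 307 ± 11 CPM in NBC males (SD, n = 3). Slc22a17 averaged 645 ± 47.2 CPM in NBC females and 478 ± 19.8 CPM in NBC males, and Iscu 35.5 ± 2.86 CPM in NBC females and 31.8 ± 3.18 CPM in NBC males. In each case the mean of the NBC males lay between those of the NBC and the sPIA females; this difference was not tested. The share of sex and of library code in these values cannot be told apart.

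In mPIA males the 1 call among the 51 was Scara5, a ferritin receptor (chromosome 14, 65666403 to 65764826, plus strand). Scara5 had 0.668, 0.601, 0.46 and 0.52 CPM in mPIA males, against 0.74, 3.13 and 4.71 CPM in NBC males. The log2 change was -2.34 (SE 0.56, edgeR adjusted p = 0.047). The 2 high NBC values were those of the libraries of high Ttr. With a choroid plexus score the change was -0.37 (edgeR adjusted p = 0.977). Without the libraries of high Ttr, which leaves NBC male 2 alone in its group, it was -0.40. The summed meningeal fibroblast markers spanned 153 to 259.9 CPM in mPIA males, against 228, 679 and 581 CPM in the NBC males in the same order, and all 8 markers had a negative log2 change (median -1.22, none called); their part in the results of Scara5 and Cp was not tested. The call was also lost with limma-voom (adjusted p = 0.124), with only the 2 groups fitted (0.203), with a red cell score (0.0551), with the replicate block (0.0591), and without NBC male 3 (0.106), NBC male 4 (0.309) or any 1 mPIA male (0.0899 to 0.118).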

How the data were processed

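Total RNA of the hippocampus was extracted and libraries were made with an Illumina TruSeq kit, per the labels' protocols. TopHat2 2.0.13, Subread, FastQC, edgeR and the build mm10 are named in the submitters' processing notes. No source names the annotation or the strand setting. The deposited values are raw counts per gene, from which levels in CPM with TMM factors were computed.

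edgeR 4.0.16 (R 4.3.3) was run on the counts of all 23 libraries with 6 group means, TMM scaling, a filter on low counts (minimum count 10, minimum total 15), the robust quasi-likelihood test and Benjamini-Hochberg adjustment over 15475 genes at 0.05. Per-gene log2 CPM used a prior count of 2. The 8 comparisons were mPIA and sPIA against NBC and sPIA against mPIA in each sex, and the sex difference of each effect. The test was checked on simulated counts with known changes. Alternatives were DESeq2 1.42.0, limma-voom (limma 3.58.1), other scaling, no filter, only the groups compared, a replicate block, covariates for marker scores, and GC content and length; 3 of them (the red cell and oligodendrocyte scores, and leaving out 4 libraries of high Ttr) were chosen after seeing the data.

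Gene positions, exon lengths and UTRs came from the GENCODE annotation of GRCm38, which matched 23350 row symbols, similar transcripts from BLAST 2.17.0, and promoter windows from RefSeq. The named genes were all 10 members, up to 4 called genes of the other iron lists for each comparison with NBC by smallest p, and for Tfrc and Trf the 5 genes of highest Spearman rho. Not every gene that the rule names is reported here. Members and lists were chosen with earlier results of these data known. Counts of 2 libraries of a group always differed beyond sampling noise, with chi-square from 3.09 to 31.3 for each degree of freedom.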

Additional observations from a re-analysis of the deposited data

Results flagged for a closer look

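Single libraries stood apart from the other 3 of their group in 7 cases among the groups of 4 libraries examined (75 in all), where chance gives about 1 in 20. Tfrc was 312 CPM in NBC female 4 and 222 to 232 CPM in the other NBC females. Trf was 42.2 CPM in sPIA male 2, with 37 to 37.9 CPM in the others. Slc11a2 was 51.9 CPM in sPIA female 3, which also had the highest Tfrc, with 38.2 to 40.5 CPM in the others. Ftl1 was 204 CPM in sPIA female 1, the library with the highest Fth1, Trf and myelin markers, with 164 to 168 CPM in the others. Cp was 17 CPM in mPIA male 1 and 8.56 to 8.98 CPM in the others. Ireb2 was 161 CPM in mPIA female 4, with 141 to 143 CPM in the others. Scara5 was 1.54 CPM in mPIA female 2, with 0.783 to 0.879 CPM in the others.

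The effect of severe anemia on Bmpr2 differed between females and males by 0.45 on the log2 scale (SE 0.11, edgeR adjusted p = 0.0429). Bmpr2 averaged 325 ± 32.7 CPM in sPIA females and 222 ± 9.02 CPM in NBC females (SD, n = 4 each), and 329 ± 34.3 CPM in sPIA males (SD, n = 4) and 307 ± 11 CPM in NBC males (SD, n = 3). The call was lost with only the groups compared in the model (adjusted p = 0.104), a choroid plexus score (0.0728), the GC content and length trend removed (0.155, log2 difference 0.23), the replicate block (0.065, log2 difference 0.42), or the libraries of high Ttr left out (0.121). It was also lost without single libraries: NBC male 3 (0.0516), NBC male 4 (0.0637), NBC female 1 (0.0949), NBC female 3 (0.0669), sPIA male 3 (0.0582), sPIA male 4 (0.106), sPIA female 2 (0.0551), sPIA female 3 (0.0903) and sPIA female 4 (0.0666).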

How the results depend on the processing

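Of 1354 values of single genes under an alternative, 1249 kept their direction and their side of the threshold, 42 reversed, 44 lost a call and 19 gained one. The causes were not tested. Most of these values were not called with the settings used above, so the 1249 say little of how stable the calls were. With 1 library left out, the call was lost for Tfrc in 5 of 8 fits, Ireb2 in 6 of 8 and Scara5 in 6 of 7. It was lost for the sex difference of Bmpr2 in 9 of 15 fits. The calls of Bmpr2, Slc22a17 and Iscu in sPIA against NBC females were kept in 8 of 8. The counts of called genes, all genes first, depended on the setting as follows. For moderate anemia in females, 1 gene was called with the settings used above, 0 with limma-voom, the GC and length trend removed, the red cell score, the replicate block or without the libraries of high Ttr, 2 with only the groups compared, and 6 with the library code as block, of which 1 was a member. For moderate anemia in males 101 became 381 with DESeq2, 24 with limma-voom, 43 with the replicate block, 0 with the choroid plexus score or only the groups compared, and 1 without the libraries of high Ttr. For severe anemia in females 2472 became 1137 with the GC and length trend removed and 1530 with the red cell score; without the libraries of high Ttr 0 members were called. For severe anemia in males 30 became 155 with DESeq2, 13 with the choroid plexus score, 6 with only the groups compared and 4 without the libraries of high Ttr. For sPIA against mPIA females 2499 became 1326 with the GC and length trend removed, and 1 member was called with DESeq2 and with the oligodendrocyte score (Ireb2), with only the groups compared (Cp) and with the GC and length trend removed (Ftl1). For sPIA against mPIA males 762 became 1220 with DESeq2, 244 with the GC and length trend removed, 450 with the choroid plexus score and 307 with only the groups compared. There 3 members were called with DESeq2, the oligodendrocyte score or without the libraries of high Ttr, 2 with DESeq2 size factors, and 0 with the GC and length trend removed, the choroid plexus or red cell score, or only the groups compared. The sex difference of moderate anemia had 0 calls, and 1 without the libraries of high Ttr. That of severe anemia went to 463 with DESeq2, 49 with the GC and length trend removed, 34 with the choroid plexus score, 5 with only the groups compared, 50 with the red cell score, 93 with the replicate block and 66 without the libraries of high Ttr, against 147 as reported.

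Log2 changes that reversed sign were few and, Cp apart, small. With the GC and length trend removed they were Slc40a1 (-0.08) and Ireb2 (-0.09) in sPIA against NBC females, Trf (0.09) and Ireb2 (-0.08) in sPIA against mPIA females, Ftl1 (0.08) in sPIA against mPIA males, and the sex difference of the mPIA effect on Tfrc (-0.03). With the replicate block that difference was -0.03 too. Without the libraries of high Ttr, Slc11a2 (-0.06), Ftl1 (0.01), Slc40a1 (0.17) and Cp (0.36) reversed in mPIA males, Trf (0.01) and Cp (1.00) in sPIA males, and Trf (0.02) in sPIA against mPIA females. The sex differences became -0.24 for Tfrc with mPIA, -0.29 for Cp with mPIA and -0.65 for Cp with sPIA. Cp was 0.15 in sPIA males with the choroid plexus score and -0.12 in mPIA females with the red cell score.

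With each library left out in turn, the calls over all genes ranged from 0 to 1 (mPIA females), 0 to 1124 (mPIA males), 1421 to 2705 (sPIA females) and 4 to 249 (sPIA males) against NBC. They ranged from 1582 to 2769 (females) and 230 to 1340 (males) for sPIA against mPIA, and from 0 to 69 (mPIA) and 5 to 327 (sPIA) for the sex differences. Members called ranged from 0 to 2 in sPIA females and from 0 to 1 in mPIA males and in sPIA against mPIA of either sex. Signs changed for Ftl1 (-0.11 to 0.01) and Slc40a1 (-0.35 to 0.02) in mPIA males, Slc11a2 in sPIA males (-0.23 to 0.02), Steap3 in mPIA females (-0.15 to 0.06), and Trf (-0.07 to 0.43), Slc11a2 (-0.09 to 0.08) and Ftl1 (-0.06 to 0.06) in sPIA females. For sPIA against mPIA they changed for Tfrc in males (-0.24 to 0.08), and in females for Trf (-0.34 to 0.17), Steap3 (-0.17 to 0.02), Fth1 (-0.05 to 0.09) and Ftl1 (-0.06 to 0.07). The sex difference of the mPIA effect on Tfrc ranged from -0.21 to 0.19.

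Replicate numbers did not meet the criterion for pairing, a correlation over 0.1 in every pair: over 22 pairs of same-numbered libraries it ran from -0.076 to 0.149. All 3 over 0.1 (0.108, 0.116 and 0.149) were mPIA and NBC females, whose same-numbered libraries also share a library code; the fourth such pair, of number 2, had 0.036. Of the libraries, 7 of 23 correlated best with their own number. With the replicate block Tfrc in sPIA females had an adjusted p of 0.0137, and the numbers of members called were as reported. Steap3 and Cp, with as few as 89 and 148 reads in a library, carry the most counting error, which together with 3 or 4 libraries a group limits what could be seen.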
